A study of Homo sapiens with 30 samples.

Results

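Collagens, laminins and other genes of the extracellular matrix were followed in 2 human multiple myeloma cell lines, OPM2 and H929. The set was chosen by name: every collagen chain symbol, every laminin chain symbol, and FN1, SPARC, THBS1, TGFBI, TIMP1, TIMP2 and TIMP3. The names matched 63 of the 25680 gene symbols in the files, 44 collagens, 12 laminins and 7 others. A mean of at least 10 counts over the 12 libraries left 30 members, which were 21 collagens, 5 laminins and FN1, THBS1, TIMP1 and TIMP2. Just above this minimum were COL25A1, COL4A6 and THBS1 with mean counts of 10.25, 11.7 and 12.7, and just below it COL2A1, COL6A3 and COL8A2 with 8.67, 6.25 and 5.42. All 30 members also passed the filter on low counts, in a test of 16409 genes. Of the 33 symbols left out, COL1A2 had no count in any library, and the highest count of COL2A1 in a library was 29. The other collagens left out, under the same minimum, were COL10A1, COL11A1, COL11A2, COL15A1, COL16A1, COL17A1, COL20A1, COL21A1, COL22A1, COL26A1, COL28A1, COL3A1, COL4A1, COL4A2, COL4A5, COL5A3, COL6A5, COL6A6 and COL8A1. The laminins left out include LAMA1, LAMA3, LAMA4, LAMB2, LAMB4 and LAMC3, and the others were SPARC, TGFBI and TIMP3.

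The groups were OPM2 cells with 100 nM dBRD9-A for 24 h, OPM2 cells with DMSO, H929 cells with 100 nM dBRD9-A for 24 h, and H929 cells with DMSO, with 3 libraries each. dBRD9-A is a small molecule that leads to degradation of BRD9, a bromodomain protein found in one form of the BAF complexes that move nucleosomes, and DMSO is its solvent. Each line stands for 1 patient's tumour, grown in culture. The other 18 samples listed, with hairpins against BRD9 or luciferase or from polysomes, were not analysed here.

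The extracellular matrix is the protein scaffold outside cells. Collagens are built from 3 alpha chains that wind into a triple helix, and laminins from an alpha, a beta and a gamma chain that join into a cross-shaped molecule of basement membranes, so that several genes must act together for one secreted molecule. Fibronectin, encoded by FN1, links collagen to integrins on cells, and TIMP proteins block the metalloproteinases that digest matrix. In bone marrow most matrix is made by stromal cells, and myeloma cells, the tumour form of antibody-secreting plasma cells, attach to it through integrins and syndecans.

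Library totals, with 1 transcript per gene, were 24524190 counts in OPM2 dBRD9-A replicate 2 and 42895379 to 76600957 in the other 11 libraries. OPM2 dBRD9-A replicate 2 stood apart. Its log2 distance to the group mean had an SD of 0.96 over 14599 genes, against 0.51 and 0.54 in the other OPM2 dBRD9-A libraries and 0.20 to 0.26 in the other 9. For 14356 of these genes, which are no independent replicates, the distance was correlated with transcript GC content. The Spearman correlation was -0.60 in this library and -0.47 to 0.59 in the other 11. H929 dBRD9-A replicates 1 and 2 had -0.47 and 0.54. The group mean includes OPM2 dBRD9-A replicate 2, so the SDs and correlations (0.54 and 0.59) of OPM2 dBRD9-A replicates 1 and 3 partly mirror it. Counts, and the OPM2 values that OPM2 dBRD9-A replicate 2 moves by over 1.5 times or across the threshold, are given with and without it. The plasma cell markers fixed for this check, 9 genes that include SDC1, TNFRSF17, XBP1 and IRF4, were counted in every group. Their summed level was 6516 to 7590 CPM (read counts scaled to library size with TMM factors) with dBRD9-A and 11770 to 14102 CPM with DMSO in OPM2, and 9189 to 10410 CPM with dBRD9-A and 15586 to 16884 CPM with DMSO in H929. IGJ was the highest of these markers in every group. Its mean was 2436 CPM with dBRD9-A and 7147 CPM with DMSO in OPM2, and 4390 and 9644 CPM in H929. In bulk RNA, a shift in the number of cells of a kind and a shift in RNA per cell cannot be told apart.

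With dBRD9-A, 6 matrix genes rose in both lines: COL1A1, COL5A2, COL27A1, LAMA2, LAMB3 and FN1. COL18A1 fell in both. LAMC1 and COL23A1 also rose in OPM2, and COL4A4 in H929, so that 10 of the 30 members changed in at least 1 line and 20 in neither. Over all genes tested, 3.77% rose in both lines, 3.19% fell in both and 23.4% were called in at least 1. A gene was called when its adjusted p by edgeR's quasi-likelihood test was under 0.05 over all genes tested. Where libraries are said below not to overlap, this describes the values and adds no support to a call on the same libraries. Members without a call, such as COL24A1, COL25A1 and THBS1 in OPM2, also had no overlap. The share of all genes without overlap is not given. In OPM2, 8 members rose and 1 fell, where 10.1% of all genes tested rose, 7.36% fell and 17.4% were called. In H929, 7 members rose and 1 fell, where 7.33% of all genes rose, 5.67% fell and 13.0% were called. Leaving out OPM2 DMSO replicate 3 gave 5 calls in OPM2. In H929, leaving out DMSO replicate 2 or dBRD9-A replicate 1 gave 4 calls, and leaving out DMSO replicate 3 or dBRD9-A replicate 2 gave 5. The shares of all genes called in these fits are not given. The median log2 fold change over the 30 members was 0.55 in OPM2, against 0.03 over all genes tested. In H929 it was 0.42 over 29 members, leaving out COL19A1, which had 3 counts in all with dBRD9-A and 0 with DMSO, against -0.0020 over all genes. Without OPM2 dBRD9-A replicate 2, 12 members rose and 2 fell in OPM2, where 16.1% of all genes rose, 15.6% fell and 31.7% were called. In the same fit, 12 members rose and 1 fell in H929, where 19.2% of all genes rose, 16.5% fell and 35.7% were called. The 6 genes that rose in both lines and COL18A1 kept their calls in both lines in that fit, with TIMP1 as the seventh gene that rose in both. It called 19 members in at least 1 line and 11 in neither, where 9.69% of all genes rose in both lines, 10.4% fell in both and 46.8% were called in at least 1.

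**Figure D1:**
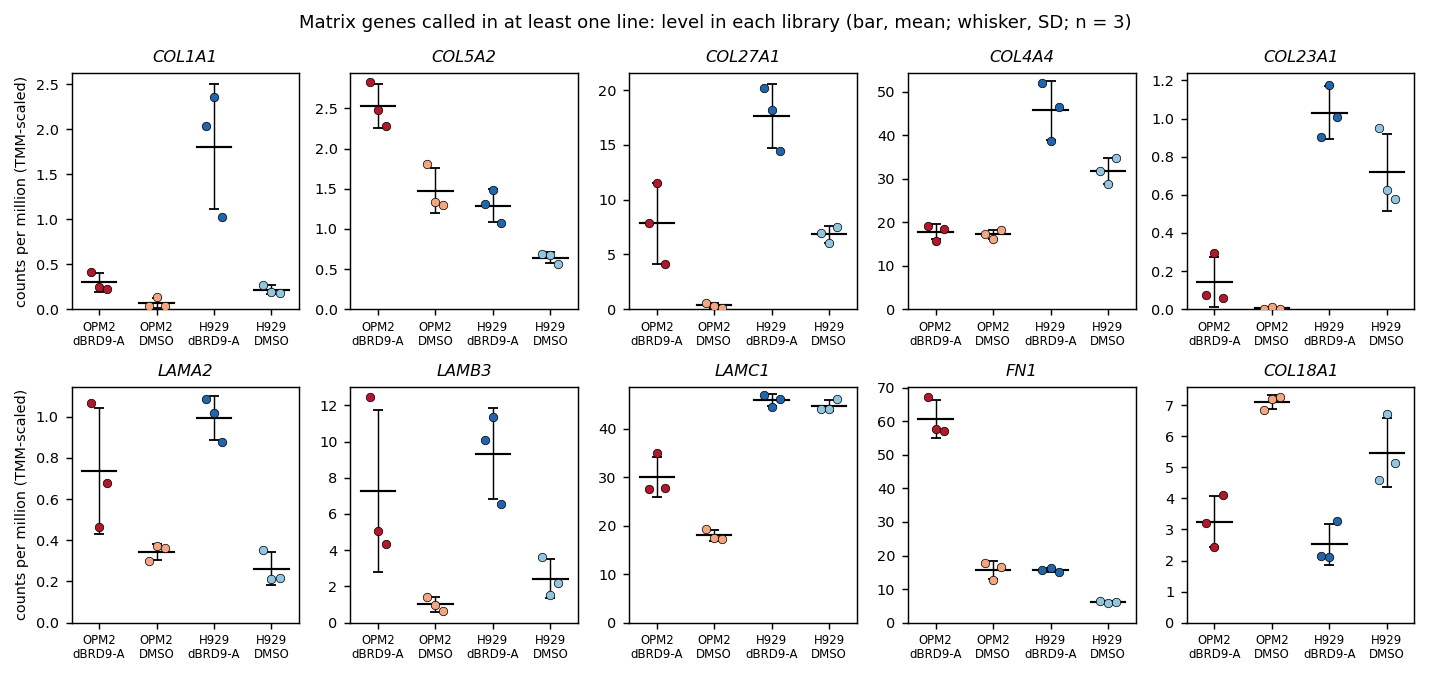
Levels of the 10 matrix genes called in at least 1 line, in TMM-scaled CPM on linear axes that start at 0. Points are libraries, bars are means and whiskers are SD (n = 3 per group), with dBRD9-A left of DMSO in each line. For the 6 genes that rose in both lines and for COL18A1, the dBRD9-A and DMSO libraries do not overlap in either line. These genes were picked by tests on the same libraries, so the gap is no separate support.

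The windows upstream of 5 genes called in both lines are printed because these genes moved in both lines, 4 upward and COL18A1 downward. Each holds the 250 bases before the gene's start in RefSeq's annotation of GRCh38.p14, read 5′ to 3′ on the gene's strand, and the start used in these cells was not measured. Capitals mark GC boxes (GGGCGG on either strand, the core of the site bound by SP1) and, in FN1, a CCAAT box (CCAAT, bound by NF-Y). LAMA2 has none of the motifs searched. The windows are COL27A1 at chr9:114155287-114155536 (plus strand), FN1 at chr2:215436069-215436318 (minus), LAMB3 at chr1:209652426-209652675 (minus), LAMA2 at chr6:128882888-128883137 (plus) and COL18A1 at chr21:45404915-45405164 (plus).
COL27A1: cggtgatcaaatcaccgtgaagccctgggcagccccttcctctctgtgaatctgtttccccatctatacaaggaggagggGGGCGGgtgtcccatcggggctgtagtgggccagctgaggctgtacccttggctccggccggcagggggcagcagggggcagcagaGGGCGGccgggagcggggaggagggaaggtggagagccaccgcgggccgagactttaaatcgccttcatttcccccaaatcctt
FN1: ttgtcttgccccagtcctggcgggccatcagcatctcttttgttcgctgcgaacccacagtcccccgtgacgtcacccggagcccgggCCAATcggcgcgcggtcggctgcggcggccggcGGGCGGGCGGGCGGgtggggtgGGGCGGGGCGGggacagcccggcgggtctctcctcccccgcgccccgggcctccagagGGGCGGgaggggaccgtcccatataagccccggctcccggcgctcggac
LAMB3: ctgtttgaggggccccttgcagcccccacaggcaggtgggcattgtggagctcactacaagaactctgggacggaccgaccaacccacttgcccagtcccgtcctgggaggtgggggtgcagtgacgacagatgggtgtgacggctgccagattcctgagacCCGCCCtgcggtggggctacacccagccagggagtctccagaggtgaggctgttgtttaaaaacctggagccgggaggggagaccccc
LAMA2: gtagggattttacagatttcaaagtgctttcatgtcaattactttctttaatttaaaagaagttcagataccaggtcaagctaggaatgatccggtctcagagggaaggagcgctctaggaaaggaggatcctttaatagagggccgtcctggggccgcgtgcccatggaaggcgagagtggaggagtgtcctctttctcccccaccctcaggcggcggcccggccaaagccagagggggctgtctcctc
COL18A1: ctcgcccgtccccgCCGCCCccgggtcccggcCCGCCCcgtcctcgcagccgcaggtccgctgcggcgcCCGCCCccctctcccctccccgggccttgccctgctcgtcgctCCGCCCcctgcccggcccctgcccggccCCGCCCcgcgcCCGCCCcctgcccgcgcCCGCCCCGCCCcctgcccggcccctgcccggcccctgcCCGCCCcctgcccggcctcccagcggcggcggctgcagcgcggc
In these windows, COL27A1 has 2 GC boxes, FN1 6, LAMB3 1 and COL18A1 9, and some of those in FN1 and COL18A1 overlap. The COL18A1 window is 88.4% G and C, the highest of the 24 members with an entry in the table, whose median was 68.0% against 58.0% over all 27305 promoters. A GC box occurs in 16 of the 24 member windows, in 42.3% of all promoters and in 64.0% of those of the genes tested. A CCAAT box occurs in 4 of 24, in 33.0% of all promoters and in 34.7% of those of the genes tested. The TATA box TATAAA occurs in 3 of 24, in 11.1% of all and in 5.77% of those tested. The AP-1 element TGANTCA and the E-box CACGTG occur in 0 of the 24, in 6.60% and 6.49% of all promoters and in 4.28% and 8.80% of those tested. Both strands were searched. COL1A1 and COL5A2 have no entry in the table.

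Fibrillar collagens form the banded fibrils of bone, tendon and skin. Of 5 members, 3 rose in each line. COL27A1, a minor fibrillar chain known from cartilage, had 7.85, 11.5 and 4.15 CPM in OPM2 with dBRD9-A, against 0.613, 0.315 and 0.130 CPM with DMSO. In H929 it had 20.2, 18.2 and 14.5 CPM with dBRD9-A, against 6.98, 6.02 and 7.53 CPM with DMSO. The treated libraries lay above the DMSO libraries in both lines, and the OPM2 dBRD9-A libraries spanned the range of the H929 DMSO libraries. The log2 fold change was 4.48 ± 0.46 (SE, edgeR adjusted p = 1.18e-04) in OPM2 and 1.36 ± 0.37 (adjusted p = 0.0324) in H929. In OPM2 the call held under all 22 alternatives and the log2 fold change was 4.12 without OPM2 dBRD9-A replicate 2. In H929 the call was lost without OPM2 DMSO replicate 2, any one H929 DMSO replicate, or H929 dBRD9-A replicate 1 or 2, with log2 fold changes of 1.28 to 1.47 and edgeR adjusted p-values of 0.0524 to 0.135.

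COL1A1, the main chain of the collagen of bone, was scarce. It had 0.414, 0.253 and 0.226 CPM in OPM2 with dBRD9-A (28, 6 and 15 counts), against 0.0314, 0.137 and 0.0389 CPM with DMSO (2, 10 and 3 counts). The H929 cells had 2.03, 2.36 and 1.03 CPM with dBRD9-A (99, 102 and 61 counts), against 0.274, 0.196 and 0.181 CPM with DMSO (17, 11 and 10 counts). The groups did not overlap in either line, and treated H929 cells had the highest level of all 4 groups. The log2 fold change was 3.03 ± 0.45 (SE, edgeR adjusted p = 0.00156) in H929, a call that held under all 22 alternatives, and 2.09 ± 0.56 (adjusted p = 0.0253) in OPM2. The OPM2 call was lost without OPM2 DMSO replicate 1 (log2 fold change 1.78, edgeR adjusted p = 0.0918), OPM2 DMSO replicate 3 (1.79, adjusted p = 0.0995) or OPM2 dBRD9-A replicate 1 (1.72, adjusted p = 0.0965). It was also lost with OPM2 fitted alone (adjusted p = 0.104).

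COL5A2 and COL5A1 encode chains of collagen V, which starts and limits the growth of fibrils. COL5A2 had 2.82, 2.48 and 2.28 CPM in OPM2 with dBRD9-A, against 1.81, 1.33 and 1.30 CPM with DMSO. The H929 libraries had 1.31, 1.48 and 1.08 CPM with dBRD9-A, against 0.693, 0.676 and 0.560 CPM with DMSO. Treated libraries were higher than DMSO libraries in both lines, by a log2 fold change of 0.78 ± 0.21 in OPM2 (SE, edgeR adjusted p = 0.0246) and 0.99 ± 0.23 in H929 (adjusted p = 0.0137). The OPM2 call was lost without OPM2 DMSO replicate 2 or 3 or OPM2 dBRD9-A replicate 1 (edgeR adjusted p = 0.106, 0.101 and 0.0783), and the H929 call without H929 DMSO replicate 3 (adjusted p = 0.0578). Fitted alone, OPM2 gave an adjusted p of 0.0969. COL5A1 had 11 counts in each H929 group, too few to judge it there (log2 fold change 0.20 ± 1.06, SE). In OPM2, COL5A1 did not rise with COL5A2. It had 1.17, 0.0842 and 1.68 CPM in OPM2 with dBRD9-A, against 2.34, 3.44 and 2.14 CPM with DMSO, a log2 fold change of -1.32 ± 0.52 (SE, edgeR adjusted p = 0.0994). The 0.0842 CPM came from OPM2 dBRD9-A replicate 2, and without this library COL5A1 passed the test at a log2 fold change of -0.90 (edgeR adjusted p = 0.0169). Without OPM2 dBRD9-A replicate 3 it also passed, at -1.86 (adjusted p = 0.0391).

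COL24A1, another minor fibrillar chain, had the highest level per kilobase of the fibrillar members in each group. It had 32.1, 53.8 and 37.9 CPM in OPM2 with dBRD9-A, against 27.0, 29.5 and 30.0 CPM with DMSO, and 27.6, 22.5 and 32.9 CPM in H929 with dBRD9-A, against 26.9, 30.9 and 30.5 CPM with DMSO. The high value was again that of OPM2 dBRD9-A replicate 2. The log2 fold change was 0.51 ± 0.19 in OPM2 (SE, edgeR adjusted p = 0.0754; 0.27 without replicate 2) and -0.09 ± 0.19 in H929 (adjusted p = 0.822). Without OPM2 dBRD9-A replicate 1 the OPM2 value was 0.66 (edgeR adjusted p = 0.0359).

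Network-forming collagens make up the sheet of basement membranes. COL4A3 and COL4A4 lie head to head on chromosome 2, on opposite strands, with starts 419 bases apart in GRCh38.p14. COL4A4 had 51.9, 38.6 and 46.5 CPM in H929 with dBRD9-A, against 31.7, 28.8 and 34.6 CPM with DMSO, and 19.2, 15.8 and 18.5 CPM in OPM2 with dBRD9-A, against 17.2, 16.0 and 18.3 CPM with DMSO. Its groups separated in H929 and overlapped in OPM2. It rose in H929 by a log2 fold change of 0.53 ± 0.14 (SE, edgeR adjusted p = 0.0251), and in OPM2 the value was 0.05 ± 0.14 (adjusted p = 0.825; 0.12 without OPM2 dBRD9-A replicate 2). The H929 call was lost without H929 DMSO replicate 1 or 2 or H929 dBRD9-A replicate 1 or 3 (edgeR adjusted p = 0.0621, 0.117, 0.111 and 0.0664). COL4A3, the neighbour, had log2 fold changes of 0.22 ± 0.15 in H929 and -0.34 ± 0.15 in OPM2 (SE, edgeR adjusted p = 0.387 and 0.133). COL4A6 was below 0.54 CPM in every library, with log2 fold changes of 0.61 ± 0.36 in OPM2 and 0.42 ± 0.52 in H929.

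Of the beaded-filament, anchoring-fibril and fibril-associated collagens, 9 members in all, none passed the edgeR test in either line. Without OPM2 dBRD9-A replicate 2, COL6A2 and COL9A2 passed in OPM2, at log2 fold changes of 1.53 and 1.27 (edgeR adjusted p = 0.0277 and 0.0167). The beaded-filament chains COL6A1 and COL6A2 had log2 fold changes of -0.23 and 1.21 in OPM2 and 0.50 and 0.35 in H929. COL6A1, the higher of them, had 11.8, 10.7 and 10.3 CPM in H929 with dBRD9-A, against 7.97, 7.09 and 8.13 CPM with DMSO, and 1.01, 0.505 and 0.483 CPM in OPM2 with dBRD9-A, against 1.27, 0.630 and 0.545 CPM with DMSO. The H929 groups did not overlap, yet the adjusted p was 0.282. COL6A1 passed in H929 with that line fitted alone and with limma-voom (adjusted p = 0.0386). COL7A1, the chain of the fibrils that anchor skin, had 3.69, 3.84 and 2.32 CPM in H929 with dBRD9-A, against 3.55, 3.26 and 3.60 CPM with DMSO, and 0.695, 0.295 and 0.604 CPM in OPM2 with dBRD9-A, against 0.927, 0.699 and 0.610 CPM with DMSO. Its log2 fold changes were -0.08 in H929 and -0.39 in OPM2. COL9A3, a chain of the collagen that coats cartilage fibrils, was the highest fibril-associated member in H929. It had 21.5, 26.0 and 17.4 CPM in H929 with dBRD9-A, against 22.6, 14.7 and 18.8 CPM with DMSO, which overlap. COL9A1 in H929 came closest to a call, with 1.56, 1.16 and 1.35 CPM with dBRD9-A against 0.693, 0.392 and 0.578 CPM with DMSO, a log2 fold change of 1.28 ± 0.40 (SE, edgeR adjusted p = 0.0520). It passed in 10 of 22 alternatives, among them those without OPM2 dBRD9-A replicate 1, 2 or 3 (adjusted p = 0.0181, 0.00327 and 0.0400). COL9A2, COL12A1, COL14A1 and COL19A1 had log2 fold changes of 1.01, 0.58, 0.12 and -0.41 in OPM2, and COL9A2, COL12A1 and COL14A1 had 0.39, 1.29 and 0.38 in H929. With OPM2 dBRD9-A replicate 2 left out, the OPM2 values of COL12A1 and COL14A1 were both 0.32, that of COL7A1 was -0.20 and that of COL6A1 was -0.12.

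Transmembrane collagens are anchored in the plasma membrane and can be shed. COL23A1 was nearly uncounted in OPM2 with DMSO. It had 5, 7 and 4 counts in the OPM2 dBRD9-A libraries, against 0, 1 and 0 in the DMSO libraries, a ratio of 21.7 after scaling, with an exact 95% counting interval of 3.37 to 909.5. The counts lie apart, but the ratio rests on 1 count with DMSO. edgeR called it (adjusted p = 0.0154) and lost the call without OPM2 DMSO replicate 1 or 3 (adjusted p = 0.0551 and 0.0632). H929 cells had 0.903, 1.18 and 1.01 CPM with dBRD9-A, against 0.951, 0.623 and 0.578 CPM with DMSO, which overlap (edgeR adjusted p = 0.450). COL13A1, which serves the nerve-muscle junction, was the highest transmembrane member in OPM2. It had 18.5, 12.3 and 14.6 CPM in OPM2 with dBRD9-A, against 13.5, 14.4 and 9.26 CPM with DMSO, and 1.40, 0.763 and 0.505 CPM in H929 with dBRD9-A, against 0.306, 0.303 and 0.560 CPM with DMSO. Its libraries overlapped in both lines, with log2 fold changes of 0.29 ± 0.30 in OPM2 and 1.18 ± 0.40 in H929 (SE, edgeR adjusted p = 0.520 and 0.0715). In H929 it passed without H929 dBRD9-A replicate 3 (adjusted p = 0.0331) or OPM2 dBRD9-A replicate 2 (adjusted p = 0.0230), and with H929 fitted alone. COL25A1 had similar values in both lines, 1.24 ± 0.46 in OPM2 and 1.35 ± 0.47 in H929 (log2 fold change ± SE, edgeR adjusted p = 0.0805 and 0.0802). The H929 value passed without OPM2 dBRD9-A replicate 2 (adjusted p = 0.0334) and with H929 fitted alone.

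COL18A1 was the only member that fell in either line, with the same log2 fold change in both. It encodes a basement membrane collagen that carries heparan sulfate and whose end piece is endostatin. It had 3.22, 2.44 and 4.11 CPM in OPM2 with dBRD9-A, against 6.85, 7.22 and 7.26 CPM with DMSO. The H929 values were 2.15, 2.13 and 3.28 CPM with dBRD9-A, against 4.58, 6.71 and 5.15 CPM with DMSO. Every treated library lay below every DMSO library of its line. The log2 fold change was -1.11 ± 0.23 in OPM2 (SE, edgeR adjusted p = 0.00733; -0.97 without OPM2 dBRD9-A replicate 2) and -1.11 ± 0.23 in H929 (adjusted p = 0.00913). With the trend on transcript GC content removed, the OPM2 value was -0.67 and no longer called (adjusted p = 0.0576). The H929 call was lost without H929 DMSO replicate 2 or H929 dBRD9-A replicate 1 or 2 (adjusted p = 0.0640, 0.0652 and 0.0521).

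Among the 5 laminin members, LAMB3 and LAMA2 rose in both lines and LAMC1 in OPM2. LAMB3, the beta chain of the laminin that anchors epithelia, had 12.5, 5.05 and 4.36 CPM in OPM2 with dBRD9-A, against 1.40, 0.973 and 0.623 CPM with DMSO. In H929 it had 10.1, 11.4 and 6.53 CPM with dBRD9-A, against 3.60, 1.51 and 2.19 CPM with DMSO. Treated libraries were the higher ones throughout. The log2 fold change was 2.89 ± 0.47 in OPM2 (SE, edgeR adjusted p = 0.00197), a call that held under all 22 alternatives. In H929 it was 1.94 ± 0.44 (adjusted p = 0.0143), and the call was lost without H929 DMSO replicate 2 or 3 or H929 dBRD9-A replicate 1 or 2 (adjusted p = 0.0780, 0.0650, 0.0557 and 0.0533).

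LAMA2, the alpha chain of muscle basement membranes, had 1.06, 0.463 and 0.679 CPM in OPM2 with dBRD9-A, against 0.298, 0.370 and 0.363 CPM with DMSO. H929 libraries had 1.09, 1.02 and 0.875 CPM with dBRD9-A, against 0.355, 0.214 and 0.217 CPM with DMSO. No libraries overlapped, but the nearest values in OPM2, 0.463 and 0.370 CPM, were close. It rose by a log2 fold change of 1.90 ± 0.33 in H929 (SE, edgeR adjusted p = 0.00378), under all 22 alternatives, and by 1.14 ± 0.32 in OPM2 (adjusted p = 0.0308). The OPM2 call was lost without OPM2 DMSO replicate 1, 2 or 3 (adjusted p = 0.113, 0.0873 and 0.0862), OPM2 dBRD9-A replicate 1 (0.77 on the log2 scale, adjusted p = 0.136), H929 DMSO replicate 3 (adjusted p = 0.0523) and H929 dBRD9-A replicate 1 or 3 (adjusted p = 0.0533 and 0.0504), and with OPM2 fitted alone (adjusted p = 0.132).

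LAMC1, the gamma chain of most laminins, had 27.5, 34.9 and 27.9 CPM in OPM2 with dBRD9-A, against 19.4, 17.4 and 17.3 CPM with DMSO. In H929 it had 47.1, 44.6 and 46.3 CPM with dBRD9-A, against 44.2, 44.2 and 46.2 CPM with DMSO. The OPM2 groups were apart and the H929 groups overlapped. The log2 fold change was 0.74 ± 0.12 in OPM2 (SE, edgeR adjusted p = 0.00162; 0.61 without OPM2 dBRD9-A replicate 2), called under all 22 alternatives, and 0.04 ± 0.11 in H929 (adjusted p = 0.888). LAMA5, the broadly expressed alpha chain, had 44.3, 12.2 and 65.6 CPM in OPM2 with dBRD9-A, against 46.9, 44.5 and 46.4 CPM with DMSO, and in H929 38.1, 43.4 and 36.7 CPM with dBRD9-A, against 42.2, 44.8 and 41.3 CPM with DMSO. The 12.2 CPM came from OPM2 dBRD9-A replicate 2, the library that stood apart, and neither line gave a call (edgeR adjusted p = 0.805 in OPM2 and 0.895 in H929). Without that library the log2 fold change in OPM2 was 0.25 (adjusted p = 0.155), against -0.17 with it. LAMB1, the beta chain that pairs with LAMA5 and LAMC1, was at 0.251 to 0.632 CPM in the 12 libraries, with log2 fold changes of -0.07 ± 0.31 in OPM2 and -0.82 ± 0.32 in H929 (SE, edgeR adjusted p = 0.910 and 0.112), and -0.11 in OPM2 without replicate 2 of dBRD9-A.

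FN1 gave the lowest adjusted p of the members in each line. It had 67.3, 57.6 and 57.1 CPM in OPM2 with dBRD9-A, against 17.7, 12.8 and 16.6 CPM with DMSO. The H929 values were 15.5, 16.3 and 15.1 CPM with dBRD9-A, against 6.32, 5.75 and 5.98 CPM with DMSO. The groups were far apart in both lines, and treated H929 cells reached about the level of OPM2 cells with DMSO. FN1 rose by a log2 fold change of 1.95 ± 0.14 in OPM2 (SE, edgeR adjusted p = 1.02e-05; 1.98 without OPM2 dBRD9-A replicate 2) and 1.38 ± 0.14 in H929 (adjusted p = 2.08e-04), under all 22 alternatives. THBS1, encoding thrombospondin, a matrix protein that can activate TGF-beta, had 152 counts over all libraries. Its log2 fold change was 1.52 ± 0.53 in OPM2 and 1.19 ± 0.40 in H929 (SE, edgeR adjusted p = 0.0680 and 0.0704), with non-overlapping groups in both. It passed in OPM2 without OPM2 dBRD9-A replicate 1 (adjusted p = 0.0369) and in H929 without OPM2 dBRD9-A replicate 2 (adjusted p = 0.00999). THBS1 also passed in H929 with that line fitted alone.

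The metalloproteinase inhibitors TIMP1 and TIMP2 did not pass the test in either line. TIMP2 had 152, 119 and 181 CPM in OPM2 with dBRD9-A, against 124, 99.7 and 141 CPM with DMSO, and 288, 275 and 301 CPM in H929 with dBRD9-A, against 247, 266 and 267 CPM with DMSO. Its groups overlapped in OPM2 and lay apart in H929, with log2 fold changes of 0.31 ± 0.16 and 0.15 ± 0.16 (SE, edgeR adjusted p = 0.183 in OPM2 and 0.596 in H929). TIMP1 had log2 fold changes of 0.24 ± 0.12 in OPM2 and 0.33 ± 0.12 in H929 (adjusted p = 0.198 and 0.105). Without OPM2 dBRD9-A replicate 2, TIMP1 passed in OPM2 at 0.33 (adjusted p = 0.0158) and in H929 at 0.36 (adjusted p = 0.0045), and TIMP2 passed in OPM2 at 0.45 (adjusted p = 0.0105). TIMP1 also passed in H929 with that line fitted alone.

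**Figure D2:**
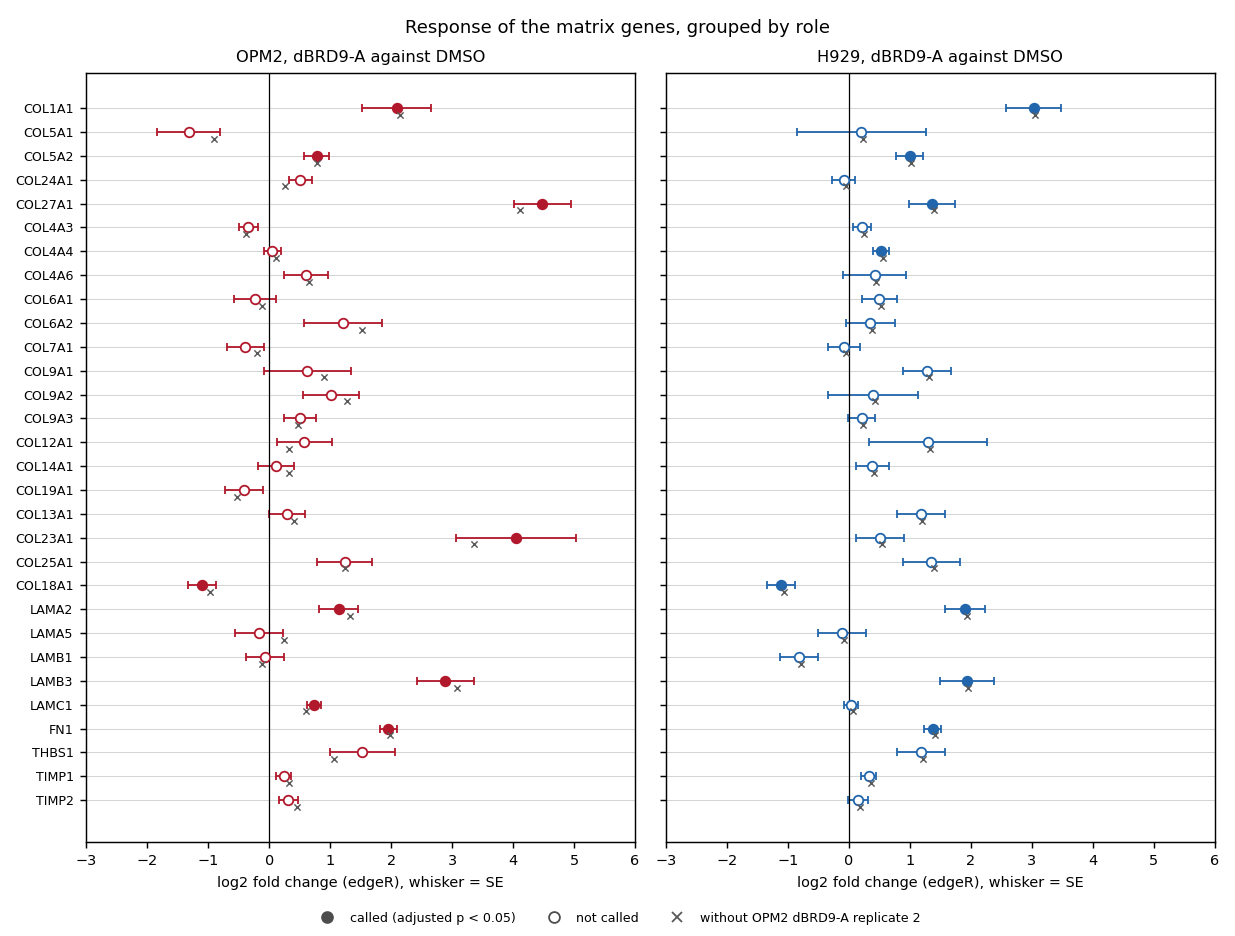
Log2 fold change of the 30 matrix genes, dBRD9-A against DMSO, in OPM2 (left) and H929 (right), with SE as whiskers. Filled points were called (edgeR adjusted p under 0.05), crosses are values without OPM2 dBRD9-A replicate 2, COL19A1 in H929 is not drawn because it had 3 and 0 counts, and COL23A1 in OPM2 rests on 1 count with DMSO. Most points lie right of 0 in both panels, and COL18A1 is the only filled point left of 0. Of all 16409 genes tested, 8590 lay above 0 in OPM2 and 8105 in H929. Several open points right of 0 rest on few counts and have a wide SE.

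The responses of the lines were also set against each other, as H929 minus OPM2. Of the 30 members, COL27A1 was called, where 0.579% of all genes were. The difference was -3.12 ± 0.58 (log2 scale, SE, edgeR adjusted p = 0.0399), that is, the response was smaller in H929. It was -2.72 without OPM2 dBRD9-A replicate 2 (adjusted p = 0.00287). The call was lost without OPM2 DMSO replicate 2 or 3 (adjusted p = 0.137 and 0.0873), OPM2 dBRD9-A replicate 1 (adjusted p = 0.0770), H929 DMSO replicate 1, 2 or 3 (adjusted p = 0.121, 0.0837 and 0.124) or H929 dBRD9-A replicate 1, 2 or 3 (adjusted p = 0.108, 0.115 and 0.125), with differences of -2.70 to -3.16. LAMC1, called in OPM2 and not in H929, had a difference of -0.70 ± 0.16 (SE, edgeR adjusted p = 0.107), which passed without OPM2 dBRD9-A replicate 2 (-0.54, adjusted p = 0.0156), with the GC trend removed (adjusted p = 0.0296), with DESeq2 (adjusted p = 0.00544) and with limma-voom (adjusted p = 0.00336). The fit without OPM2 dBRD9-A replicate 2 called 2 members for the difference, where 3.05% of all genes were called. FN1 differed by -0.58 ± 0.19 (adjusted p = 0.328), COL4A4 by 0.47 ± 0.19 (adjusted p = 0.491), COL1A1 by 0.94 ± 0.77 (adjusted p = 0.741) and COL18A1 by -0.01 ± 0.32 (adjusted p = 1.0).

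The lines differed in which matrix genes they made. In DMSO, 13 of the 30 members were higher and 8 lower in H929 than in OPM2 at an edgeR adjusted p under 0.05, counting only differences of 1 or more on the log2 scale. Over all genes tested, 21.4% were higher, 15.0% lower and 36.3% called. The count minimum for members was a mean over both lines, so a gene could enter through a single line. In DMSO, COL12A1 had 118 counts in OPM2 and 4 in H929, COL5A1 565 and 11, and COL23A1 1 and 126. The minimum can thus favour members that differ between lines. Whether the filter on all genes does so to the same extent was not tested, so these shares cannot be compared directly. Of the 6 fibril-associated collagens, 3 were higher and 3 lower. COL9A3 had 22.6, 14.7 and 18.8 CPM in H929 and 1.02, 0.603 and 1.18 CPM in OPM2, a log2 fold change of 4.32 ± 0.26 (SE, edgeR adjusted p = 3.16e-08). COL9A1 was higher by 3.51 ± 0.54 (log2, SE), while COL9A2, the third chain of the same trimer, was lower, at -2.55 ± 0.60. COL19A1 had no count in H929 and 246 counts in OPM2, at least 66.6-fold lower in H929 when 3 counts over the group stand for 0, a bound for counting error only. COL14A1 was higher by 1.36 and COL12A1 lower, at -4.47.

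Both beaded-filament chains were higher in H929, COL6A1 by 3.25 ± 0.32 and COL6A2 by 3.92 ± 0.53 (log2 fold change ± SE), as was COL7A1 by 2.22 ± 0.28. COL27A1 was higher by 4.30 ± 0.46 (SE, edgeR adjusted p = 4.96e-06), so the gene with the largest response in OPM2 among those counted in every DMSO library started from a lower level there. COL5A1 was lower in H929, at -5.34 ± 0.72, and its partner COL5A2 at -1.19 ± 0.22. COL13A1 had 0.306, 0.303 and 0.560 CPM in H929 and 13.5, 14.4 and 9.26 CPM in OPM2, a log2 fold change of -4.99 ± 0.38 (SE, edgeR adjusted p = 2.36e-07). COL23A1 went the other way, with 126 counts in H929 and 1 in OPM2, a ratio of 155.2 after scaling (95% counting interval 27.3 to 6176). FN1 was lower in H929, at -1.38 ± 0.14, and COL4A6 at -1.82 ± 0.44. LAMC1 was higher by 1.31 ± 0.12, TIMP2 by 1.10 ± 0.16 and THBS1 by 1.97 ± 0.50.

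LAMB3 and COL1A1 were higher in H929 by 1.30 ± 0.46 and 1.61 ± 0.58 (log2 fold change ± SE), but both calls were fragile. LAMB3 lost its call without OPM2 DMSO replicate 2 or 3 (edgeR adjusted p = 0.0728 and 0.108) or H929 DMSO replicate 1 or 3 (adjusted p = 0.161 and 0.0522), at 0.86 to 1.34. COL1A1 lost it without OPM2 DMSO replicate 1 or 3 (adjusted p = 0.0964 and 0.105) or H929 DMSO replicate 1 or 2 (adjusted p = 0.105 and 0.0506). Without OPM2 DMSO replicate 2, TIMP2 was at 0.97, under the fold threshold. With unscaled library sizes, which moved the median of all genes in the comparison of lines by -0.12, LAMB3 and TIMP2 were also no longer called (1.18 with adjusted p = 0.0523, and 0.98). LAMA5, COL24A1 and COL25A1 had log2 fold changes of -0.10, 0.03 and -0.06 between lines and COL18A1 of -0.38, none of them called.

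Levels of different genes were compared per kilobase of transcript. TIMP1 and TIMP2 led in all 4 groups. TIMP1 was at 55.3 ± 7.2 CPM per kilobase with dBRD9-A and 46.9 ± 2.5 with DMSO in OPM2, and at 88.7 ± 8.4 with dBRD9-A and 70.8 ± 5.5 with DMSO in H929 (SD, n = 3 each). TIMP2 was at 41.3 ± 8.6, 33.2 ± 5.7, 78.8 ± 3.5 and 71.1 ± 3.1 CPM per kilobase in the same groups, so that the 2 genes do not differ beyond their spread in H929 with DMSO. The next gene differed by line and treatment. In OPM2 with dBRD9-A it was FN1 with 6.90 ± 0.65 CPM per kilobase, followed by COL24A1 with 6.35 ± 1.7, within its spread. In OPM2 with DMSO, FN1 was at 1.78 ± 0.29, below COL24A1 (4.44 ± 0.25), LAMA5 (4.02 ± 0.11), COL13A1 (3.95 ± 0.88) and LAMC1 (2.29 ± 0.15). In H929 the next gene was COL9A3, at 8.71 ± 1.7 CPM per kilobase with dBRD9-A and 7.52 ± 1.6 with DMSO, followed by LAMC1 at 5.83 ± 0.16 and 5.68 ± 0.15. COL27A1 was at 1.40 ± 0.66 CPM per kilobase in OPM2 with dBRD9-A, against 0.0631 ± 0.044 with DMSO, and at 3.16 ± 0.52 in H929 with dBRD9-A, against 1.23 ± 0.14 with DMSO.

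**Figure D3:**
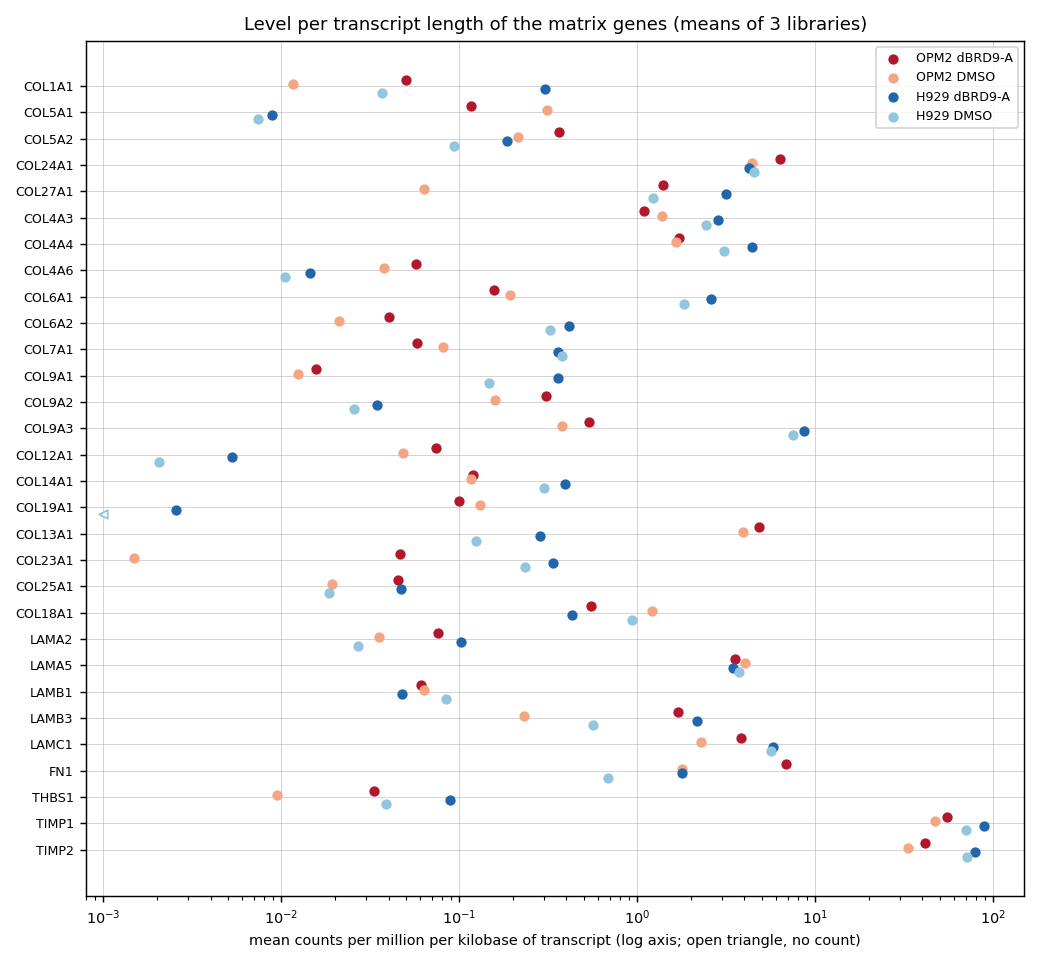
Mean level of each of the 30 matrix genes in the 4 groups, in CPM per kilobase of transcript on a log axis (3 libraries per group; the open triangle is COL19A1 in H929 with DMSO, which had no count). TIMP1 and TIMP2 lie between 33.2 and 88.7 in all groups, and COL9A3, COL13A1, COL6A1 and COL5A1 show H929 and OPM2 far apart.

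Because a chain is secreted with its partners, the levels of partner chains were set side by side. COL1A1 rose in both lines while COL1A2, the other chain of collagen I, had 0 counts in all 12 libraries, which allows up to 3 counts in a library. COL1A1 can also form a trimer of its own. COL4A3 and COL4A4 were at 1.09 to 4.42 CPM per kilobase over the groups, whereas COL4A5, which completes their trimer, had 21 counts over the 12 libraries. COL6A3, the third chain of collagen VI, had 75 counts in all. LAMB3 was at 1.69 ± 1.0 CPM per kilobase in OPM2 with dBRD9-A, against 0.232 ± 0.090 with DMSO, and at 2.17 ± 0.58 in H929 with dBRD9-A, against 0.565 ± 0.25 with DMSO (SD, n = 3 each). LAMA3, the alpha chain it joins, had 18 counts over all libraries. LAMA5 and LAMC1 were both at 2.29 to 5.83 CPM per kilobase over the groups, but the beta chains that join them were scarce, with LAMB1 at 0.0477 to 0.0844 CPM per kilobase and LAMB2 at 11 counts in all. RNA levels alone were measured, so no statement on secreted trimers can be made.

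**Figure D4:**
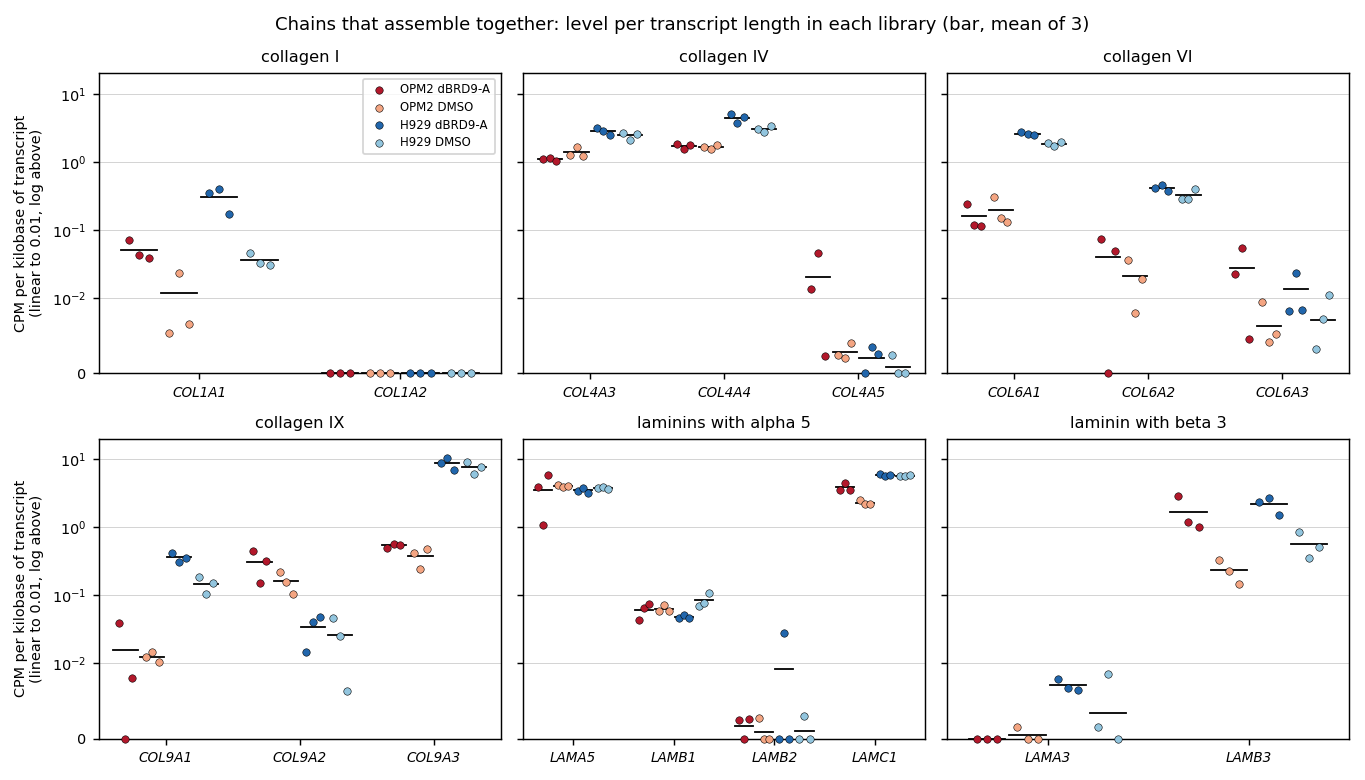
Chains that assemble into one molecule, in CPM per kilobase of transcript in each library (points) with the mean of 3 (bars). The axis is linear up to 0.01 and logarithmic above; COL1A2 is at 0 in every library, COL4A5, LAMA3 and LAMB2 lie far below their partners, and LAMB3 is higher with dBRD9-A in both lines.

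Around the matrix genes, 5 lists of matrix biology were described by count, to be read against the 17.4% of all genes called in OPM2 and the 13.0% called in H929. Of the genes that fold, modify and process collagen, 27 of 33 were tested. In OPM2, 3 rose and 2 fell (median log2 fold change 0.07), and in H929, 1 rose and 2 fell (0.10). SERPINH1, the chaperone of collagen in the endoplasmic reticulum, rose in both lines. It averaged 48.3 ± 6.7 CPM with dBRD9-A and 18.0 ± 2.5 with DMSO in OPM2 (SD, n = 3 each, log2 fold change 1.43, edgeR adjusted p = 1.87e-04), and 16.0 ± 1.9 with dBRD9-A and 7.30 ± 0.86 with DMSO in H929 (1.13, adjusted p = 0.00118). COLGALT1, which adds galactose to collagen, fell in both lines, at -0.96 in OPM2 and -1.0 in H929 (log2 fold change, edgeR adjusted p = 0.0155 and 0.0165). The COLGALT1 call was lost in OPM2 without OPM2 DMSO replicate 2 (adjusted p = 0.0528) and with OPM2 fitted alone (adjusted p = 0.107). In H929 it was lost without H929 DMSO replicate 2 or 3 (adjusted p = 0.106 and 0.0559) or H929 dBRD9-A replicate 1, 2 or 3 (adjusted p = 0.0982, 0.0642 and 0.0538). P4HA2 rose and COLGALT2 fell in OPM2, at 1.05 and -0.82, and PCOLCE2 fell in H929, at -0.99. Their edgeR adjusted p-values were 0.0090, 0.0277 and 0.0344, with the call lost in 1, 4 and 8 of 22 alternatives.

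Of 30 matrix receptors, 25 were tested. In OPM2, 5 rose and 3 fell (median log2 fold change 0.01), and in H929, 6 rose and 1 fell (0.23). ITGA3, a laminin-binding integrin chain, fell in OPM2, at a log2 fold change of -1.48 ± 0.18, with means of 3.22 ± 0.85 CPM with dBRD9-A and 9.16 ± 0.73 with DMSO (edgeR adjusted p = 2.81e-04). Other integrin chains rose in OPM2, ITGA7 by 2.14 ± 0.41 and ITGB1 by 0.98 ± 0.22 (adjusted p = 0.0050 and 0.0105). ITGB1 was at 0.61 without OPM2 dBRD9-A replicate 2. ITGA8 fell in OPM2 and H929, at -1.76 and -0.89 (adjusted p = 0.00356 and 0.0461). The OPM2 calls of these 3 were lost with OPM2 fitted alone, and that of ITGA8 in H929 in 12 of 22 alternatives. ITGAV, the alpha chain of several fibronectin and vitronectin receptors, rose in H929 by 0.78 ± 0.16, at 19.8 ± 4.2 CPM with dBRD9-A and 11.5 ± 0.30 with DMSO (adjusted p = 0.00773). SDC2 and SDC3 also rose in H929, by 0.87 and 0.72 (edgeR adjusted p = 0.0200 and 0.0130), and each lost its call in 3 of 22 alternatives. Of 23 matrix proteases, 13 were tested. In OPM2, 1 rose and 0 fell (median 0.21), and in H929, 4 rose and 0 fell (0.31). MMP13, a collagenase, rose in both lines, to 0.986 ± 0.55 CPM with dBRD9-A against 0.0385 ± 0.025 with DMSO in OPM2 (log2 fold change 4.55, edgeR adjusted p = 5.94e-04), and to 3.88 ± 1.4 CPM against 0.319 ± 0.058 in H929 (3.60, adjusted p = 6.31e-04). In H929, MMP16 and CTSK rose by 0.63 and 0.60 (adjusted p = 0.0406 and 0.0341), calls lost in 9 and 7 of 22 alternatives. ADAMTS1 rose there from 0 to 0.0946 CPM (adjusted p = 0.0268), a call lost in 5 of 21 alternatives.

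Among 17 tested of 29 other matrix glycoproteins and proteoglycans, 2 rose and 0 fell in OPM2 (median log2 fold change 0.36), and 1 rose and 1 fell in H929 (0.40). THBS3 rose in OPM2 by 0.80 and SPOCK1 fell in H929, at -1.09 (edgeR adjusted p = 0.0315 and 0.0268). They lost these calls in 13 and 8 of 22 alternatives. Of 17 genes of the TGF-beta pathway, which drives matrix genes in many tissues, 15 were tested. In each line 2 rose and 0 fell, with medians of 0.19 in OPM2 and 0.01 in H929. SMAD3, which carries the TGF-beta signal to the nucleus, rose in both lines. It averaged 42.3 ± 2.4 CPM with dBRD9-A and 12.5 ± 1.9 with DMSO in OPM2 (SD, log2 fold change 1.76, edgeR adjusted p = 1.87e-04), and 37.8 ± 6.1 with dBRD9-A and 15.4 ± 3.8 with DMSO in H929 (1.29, adjusted p = 0.00156). TGFBR2, a TGF-beta receptor, rose in H929 by 1.09 ± 0.19 (adjusted p = 0.00363). SKIL, also of this list, rose in OPM2 by 0.68 ± 0.19 (edgeR adjusted p = 0.0290), or 0.43 without OPM2 dBRD9-A replicate 2. The SKIL call was lost in 5 of 22 alternatives. SERPINH1, ITGA3, ITGAV, MMP13, SMAD3 and TGFBR2 kept these calls in all 22 alternatives, and were picked from the called members of the lists after their values were seen. Without OPM2 dBRD9-A replicate 2, the counts of genes that rose and fell in OPM2 were, where 31.7% of all genes were called, 5 and 5 for folding, 8 and 4 for receptors, 4 and 1 for proteases, 4 and 0 for glycoproteins and 4 and 0 for TGF-beta. In H929 they were 4 and 4, 11 and 2, 7 and 2, 5 and 1, and 4 and 0 in the same order, where 35.7% of all genes were called.

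Marker genes of other cell types were also measured, since several of those cells make matrix. Of 9 fibroblast and stromal markers, a list that itself holds COL1A1 and COL3A1, the summed level was 0.453 to 0.932 CPM with dBRD9-A and 0.346 to 0.493 CPM with DMSO in OPM2, and 2.64 to 4.32 CPM with dBRD9-A and 1.41 to 1.73 CPM with DMSO in H929. LUM was at 0 in all 4 groups, THY1 at 0 in both OPM2 groups and COL3A1 at 0 in both H929 groups. The 5 epithelial markers summed to 0.0842 to 0.636 CPM with dBRD9-A and 0 to 0.0779 CPM with DMSO in OPM2, and to 15.6 to 24.8 CPM with dBRD9-A and 8.39 to 11.2 CPM with DMSO in H929, where KRT18 led and KRT19 was at 0. The 5 macrophage markers summed to 0.337 to 0.902 CPM with dBRD9-A and 0.389 to 0.534 CPM with DMSO in OPM2, and to 5.22 to 10.6 CPM with dBRD9-A and 1.57 to 4.19 CPM with DMSO in H929, where CSF1R led. The 5 endothelial markers, led by PECAM1, summed to 29.3 to 44.9 CPM with dBRD9-A and 27.4 to 37.1 CPM with DMSO in H929, and the 4 T cell markers, led by CD3E, to 36.7 to 39.7 CPM with dBRD9-A and 23.3 to 25.6 CPM with DMSO. In OPM2 these 2 lists stayed at 0.221 to 2.37 CPM in all libraries. With all libraries, the plasma cell markers IGJ and SLAMF7 were called lower in both lines, MZB1 in OPM2 and IRF4 in H929. SDC1, TNFRSF17, XBP1, PRDM1 and CD38 were called in neither line. Of the markers of other cell types, besides COL1A1, CDH1 and KRT8 were called higher in both lines, and CSF1R and CD2 in H929. ACTA2, CD14, PECAM1, KRT18 and CD3E were called in neither line. In OPM2 the called markers were scarce. CDH1 averaged 0.0646 CPM with dBRD9-A and 0 with DMSO there, and KRT8 0.137 and 0.0235 CPM. The part of the other cell type markers, and of the lower summed plasma cell markers with dBRD9-A, in the matrix gene results was not tested.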

How the data were processed

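RNA of OPM2 and H929 cells was sequenced from libraries of a stranded, mRNA-selecting kit, per the labels' protocols. STAR and featureCounts were among the tools, with hg19 and GRCh37 as builds, per the submitters' processing notes, which give no versions. How strand was treated in counting is not stated there or in the labels. Per the file headers, each library has columns of counts, FPKM and TPM for 51780 RefSeq transcripts of 25680 symbols. The deposited counts are whole, unnormalised numbers. The deposited FPKM gave transcript lengths and the deposited TPM was not used further.

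Each gene was the transcript with the highest mean count. Symbols with low mean counts, among them COL25A1, COL4A6 and THBS1, were left out of a check for near-identical counts. In at least 1 library, the other members differed by more than 5% from every other symbol in that check. Counts were tested with edgeR 4.0.16 in R 4.3.3 (filterByExpr by group, TMM factors, quasi-likelihood test, 1 mean for each of 4 groups, 8 residual degrees of freedom, Benjamini-Hochberg adjustment over 16409 genes). The test was also run on simulated counts with known changes. These were drawn without an outlying library or a trend with GC content, so they cannot speak to the effect of OPM2 dBRD9-A replicate 2. CPM values are TMM-scaled. Where a group had no count, 3 counts over the group served as the floor. Counting intervals are exact at 95%.

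Responses to dBRD9-A were tested within each line and against each other, as was H929 against OPM2 in DMSO. Members, gene lists, tests and the rule for naming genes were chosen with earlier results of these data known. An item that matched the naming rule but was under the count minimum is not reported here. Values in every library are given for members called in a treatment comparison or in the difference, for the highest member of each role and for a few others picked after their values were seen. From each other list the rule took up to 4 called genes per line with a mean of at least 1 CPM over all libraries. The 22 alternatives were each library left out, RLE factors, unscaled libraries, DESeq2 1.42.0, no filter, 1 CPM in at least 3 libraries as the filter, each line alone, the replicate number as a block, the sum over transcripts, a trend with GC content removed, and voom with library weights (limma 3.58.1). GC content came from GENCODE transcripts of another build, matched by RefSeq transcript or, failing that, by symbol, for 98.09% of the genes tested. The labels do not say that replicates came from separate cultures. The p-values then measure only how these libraries spread, which may be technical. Intervals and floors cover counting error only.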

Additional observations from a re-analysis of the deposited data

Results flagged for a closer look

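The response of COL27A1 differed between the lines by the edgeR test of the difference itself. H929 minus OPM2 was -3.12 ± 0.58 (log2 scale, SE, adjusted p = 0.0399), with log2 fold changes of 1.36 in H929 and 4.48 in OPM2. COL27A1 was higher with dBRD9-A in all 3 libraries of each line than in any DMSO library of that line. Means were 17.6 ± 2.9 CPM with dBRD9-A and 6.84 ± 0.77 CPM with DMSO in H929, and 7.83 ± 3.7 CPM with dBRD9-A and 0.353 ± 0.24 CPM with DMSO in OPM2 (SD, n = 3 each). Of 21 alternatives, 10 lost the call, and over those 10 the difference was -2.70 to -3.16.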

How the results depend on the processing

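Of 39 called results of single members, 829 alternative values were computed, of which 767 kept the call and 62 lost it, and none changed sign while called. Of 1714 values of results not called, 62 passed the threshold. In OPM2, 9 members were called, 5 with each line fitted alone, 14 after removal of the GC trend and 18 with limma-voom. In H929, 8 were called, 14 with each line alone and 14 with limma-voom. Fitted alone, H929 kept its calls and added COL6A1, COL9A1, COL13A1, COL25A1, THBS1 and TIMP1, all higher with dBRD9-A. For the difference of responses, 1 was called, 0 with the sum over transcripts (COL27A1 at an adjusted p of 0.050), 2 with DESeq2, 2 after removal of the GC trend and 4 with limma-voom. In DMSO, 21 members differed between lines. Leaving out 1 library gave 5 to 14 in OPM2, 4 to 13 in H929, 0 to 2 for the difference and 19 to 21 between lines. The extremes in OPM2 were 5 without OPM2 DMSO replicate 3 and 14 without OPM2 dBRD9-A replicate 2, and in H929 4 without H929 DMSO replicate 2 or H929 dBRD9-A replicate 1 and 13 without OPM2 dBRD9-A replicate 2. The cause was not tested. The share of all genes called is given only for all libraries and for the fit without OPM2 dBRD9-A replicate 2. It was 17.4% and 31.7% in OPM2, and 13.0% and 35.7% in H929. A count under another setting therefore cannot be read as a result about the matrix genes.

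With the replicate number as a block, 7 were called in OPM2, 7 in H929, 1 for the difference and 21 between lines. Under this block LAMA2 (adjusted p = 0.102) and COL5A2 (0.0525) were not called in OPM2, nor COL4A4 (0.0529) in H929. Same-numbered libraries did not deviate together (r of 0.07, -0.02 and -0.02 in OPM2 and 0.03, -0.18 and -0.07 in H929, across 14599 genes), so the numbers were not taken as pairs. Differently numbered H929 libraries ranged from r of -0.30 (dBRD9-A 3 with DMSO 1) to 0.35 (dBRD9-A 3 with DMSO 2). Whether libraries share a batch under another numbering was not tested. The filter of 1 CPM in 3 libraries gave no value for the lowest members. Members with few counts, such as COL23A1 in OPM2, are limited by depth.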
